A study of Mus musculus with 8 samples.

Results

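Aminoacyl-tRNA synthetases are the enzymes that load each tRNA with its amino acid, and they thereby set the genetic code. Mammalian cells hold a cytosolic set, which serves the ribosomes of the cytoplasm, and a mitochondrial set, which is encoded in the nucleus, imported into mitochondria, and serves the ribosomes there. Several cytosolic enzymes sit together in a multi-synthetase complex with the scaffold proteins *Aimp1*, *Aimp2*, and *Eef1e1*. The enzymes fall into classes I and II by the fold of their catalytic domain, and many genes of the cytosolic set are known targets of *Atf4*, the transcription factor of the integrated stress response. The members were the 36 genes of a fixed list of symbols, 20 for cytosolic and 16 for mitochondrial enzymes, of 52550 genes in the count table. The symbols are those of the annotation used here (*Aars* is now Aars1, and likewise for other cytosolic enzymes). *Gars* and *Kars*, counted here as cytosolic, each encode both a cytosolic and a mitochondrial enzyme. Levels are given in CPM, a gene's count scaled to 1000000 reads on genes in its library. All 36 members reached 1 CPM in each of the 4 inputs, the filter on low values that left 10754 genes to be tested.

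All 8 libraries came from mouse embryonic stem cells (ESCs) with a knockout of *Eif4a2*, which encodes an RNA helicase of translation initiation. The cells carried either an empty vector (EV) or a Flag-tagged *Eif4a2* transgene (Eif4a2flag), and they grew in serum medium with 1.5 µM CHIR99021, 0.5 µM PD0325901, and LIF. RNA was sequenced from the lysate (input) and from the material that 5 µg of an anti-Flag antibody pulled down (RNA immunoprecipitation, RIP), so that there were 4 groups of 2 libraries, namely input EV, input Eif4a2flag, RIP EV, and RIP Eif4a2flag. RIP EV holds no tagged protein and measures what antibody and beads retain. The study's legends name separate clones of a re-expressed isoform as its replicates, and the source of the EV replicates was not stated in the sources used here. The p-values therefore measure the spread between these libraries. In a label of RIP Eif4a2flag replicate 2, a field names *Eif4a3* in place of *Eif4a2*.

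The libraries held between 2044853 and 11206420 reads on genes, fewest in RIP EV. Replicates differed by a biological coefficient of variation of 30.0% in input EV, 28.0% in input Eif4a2flag, and 23.0% in RIP Eif4a2flag, but of 159% in RIP EV, so RIP EV stood apart, and what leaving out 1 of its libraries did is given with the results that rest on it. *Eif4a2* itself was counted at 53.8 and 94.2 CPM in input EV and at 86.8 and 69.1 CPM in input Eif4a2flag, so these 3′ tags did not separate knockout from re-expressing cells and do not check the labels. The 8 markers of ESCs summed to between 1965 and 2639 CPM in the inputs, with *Pou5f1* lowest at 5.78 to 19.7 CPM. The 12 markers of differentiated and feeder cells summed to between 4.81 and 15.0 CPM there, and *Sox17*, *Col1a2*, and *Col3a1* were at 0 counts in all 4 inputs.

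In the inputs the mRNAs of cytosolic enzymes far outnumbered those of mitochondrial enzymes. QuantSeq counts a transcript by its 3′ end, so CPM was not scaled by transcript length. Comparisons between genes also depend on overlapping exons and on reads that did not map uniquely. The counts listed as alignments that were not unique made up 44.5% to 52.1% of all counts of an input, summary lines included. Levels were not corrected for overlap or for such reads. Over the 4 inputs, the mean level of cytosolic members ran from 37.0 CPM ± 5.68 (SD, n = 4) for *Wars*, the tryptophanyl enzyme, to 852 CPM ± 142 for *Farsa*, the catalytic subunit of the phenylalanyl enzyme. The mean of mitochondrial members ran from 3.78 CPM ± 1.33 for *Pars2*, the prolyl enzyme, to 80.4 CPM ± 13.7 for *Cars2*, the cysteinyl enzyme. After *Farsa* came *Gars* (522 CPM ± 175), *Eprs* (348 CPM ± 93.4), which joins the glutamyl and prolyl enzymes in 1 protein, *Mars* (297 CPM ± 53.6), and *Farsb* (291 CPM ± 96.7). From *Eprs* down to *Nars* (261 CPM ± 83.3), the 6 means of *Eprs*, *Mars*, *Farsb*, *Rars*, *Tars*, and *Nars* lay closer together than the SD of *Eprs*. At the lower end of the mitochondrial list, *Nars2* (7.23 CPM ± 1.26), *Sars2* (6.17 CPM ± 0.632), *Wars2* (4.42 CPM ± 3.51), and *Pars2* followed each other, and *Wars2* and *Pars2* did not differ beyond their spread.

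Pairs of a cytosolic and a mitochondrial member for the same amino acid were formed for 14 amino acids, with *Farsa* set against *Fars2*. *Eprs*, which serves glutamate and proline from 1 mRNA, was left out of the pairs, and its mean input level was 14.2 times that of *Ears2* and 92.0 times that of *Pars2*. The cytosolic mRNA of the pairs was the more abundant in every input for 12 of the 14. Among these pairs the ratio of the mean input levels was highest for *Nars* over *Nars2*, at 36.2, followed by *Mars* over *Mars2* at 30.5, *Sars* over *Sars2* at 23.5, and *Farsa* over *Fars2* at 21.2. The exceptions were *Cars* over *Cars2*, with a ratio of 1.09 that fell to 0.724 in the lowest input, and *Vars* over *Vars2*, with a ratio of 1.73 that fell to 0.995.

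The promoters of the members were searched for the letters TGATGCAA and TGATGNAA, forms of the element that *Atf4* binds together with C/EBP proteins, and for the E-box CACGTG, on both strands. RefSeq windows of GRCm38.p6, from 250 bases before to 50 after the start site, matched 13 cytosolic and 14 mitochondrial members. TGATGCAA was present in 4 of 13 cytosolic windows, those of *Aars*, *Iars*, *Tars*, and *Yars*, and in none of 14 mitochondrial windows, beside 1.03% of all 27025 genes. TGATGNAA, which includes TGATGCAA, was present in 5 of 13, with *Gars* added, and in none of 14, beside 4.51% of genes. CACGTG was present in 4 of 13 (*Aars*, *Farsb*, *Iars*, and *Tars*) and in 1 of 14 (*Ears2*), beside 8.09% of genes. A match is a description and no evidence of binding. The 4 windows with TGATGCAA are shown because cytosolic and mitochondrial members differed in this element and because *Aars* is among them, on which the comparisons below turn. Capitals mark each match to TGATGNAA on either strand, and each window is written along the strand of its gene.
*Aars*, chr8:111033592-111033891, plus strand: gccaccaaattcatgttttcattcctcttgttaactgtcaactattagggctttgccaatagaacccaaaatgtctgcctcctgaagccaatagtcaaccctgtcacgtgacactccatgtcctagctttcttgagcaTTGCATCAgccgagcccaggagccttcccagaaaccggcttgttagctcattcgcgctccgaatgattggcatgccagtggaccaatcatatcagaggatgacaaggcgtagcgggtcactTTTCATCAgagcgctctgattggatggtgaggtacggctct
*Iars*, chr13:49681880-49682179, plus strand: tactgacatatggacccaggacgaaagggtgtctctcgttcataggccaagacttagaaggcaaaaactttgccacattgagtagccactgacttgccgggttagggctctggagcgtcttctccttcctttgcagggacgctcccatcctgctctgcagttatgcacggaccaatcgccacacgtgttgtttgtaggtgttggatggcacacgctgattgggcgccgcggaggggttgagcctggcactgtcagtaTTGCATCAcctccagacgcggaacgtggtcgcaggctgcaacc
*Tars*, chr15:11399609-11399908, minus strand: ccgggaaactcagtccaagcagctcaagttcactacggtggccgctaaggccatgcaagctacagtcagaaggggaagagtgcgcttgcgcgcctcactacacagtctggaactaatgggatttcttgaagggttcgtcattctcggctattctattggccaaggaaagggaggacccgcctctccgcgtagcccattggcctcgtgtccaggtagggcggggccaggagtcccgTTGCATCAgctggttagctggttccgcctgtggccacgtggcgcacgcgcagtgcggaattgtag
*Yars*, chr4:129189653-129189952, plus strand: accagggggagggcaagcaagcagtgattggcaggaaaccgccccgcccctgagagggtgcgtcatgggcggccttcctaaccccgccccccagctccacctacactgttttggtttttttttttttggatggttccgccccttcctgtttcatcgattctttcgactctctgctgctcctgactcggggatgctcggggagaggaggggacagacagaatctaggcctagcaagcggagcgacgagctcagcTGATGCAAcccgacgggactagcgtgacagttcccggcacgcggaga
Counted with the start site as base 1, the TGATGCAA match began at base -112 in *Aars*, 8 in *Iars*, -15 in *Tars*, and 4 in *Yars*. The windows of *Cars*, *Hars*, *Lars*, *Nars*, *Rars*, *Vars*, *Wars*, *Hars2*, and *Pars2* were not analysed here.

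The first comparison, RIP Eif4a2flag against input Eif4a2flag, addressed which mRNAs were recovered with the tagged helicase beyond their abundance. Of the 36 synthetase mRNAs, 4 were higher in the RIP, namely *Aars*, which encodes the cytosolic alanyl enzyme, and *Aars2*, *Tars2*, and *Pars2*, which encode the mitochondrial alanyl, threonyl, and prolyl enzymes. Their changes lay between 2.48-fold and 2.84-fold. None was called lower. These were 1 of 20 cytosolic and 3 of 16 mitochondrial members, beside 8.44% of all genes tested that were called higher and 8.46% that were called lower (edgeR, adjusted p under 0.05). The 4 calls come from the fit of the 4 libraries compared, and in the fit of all 8 libraries, which takes in the spread of RIP EV, no member was called, with adjusted p between 0.399 and 0.611 for these 4. That fit called 0 of the 10754 genes higher and 6 lower.

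**Figure D1:**
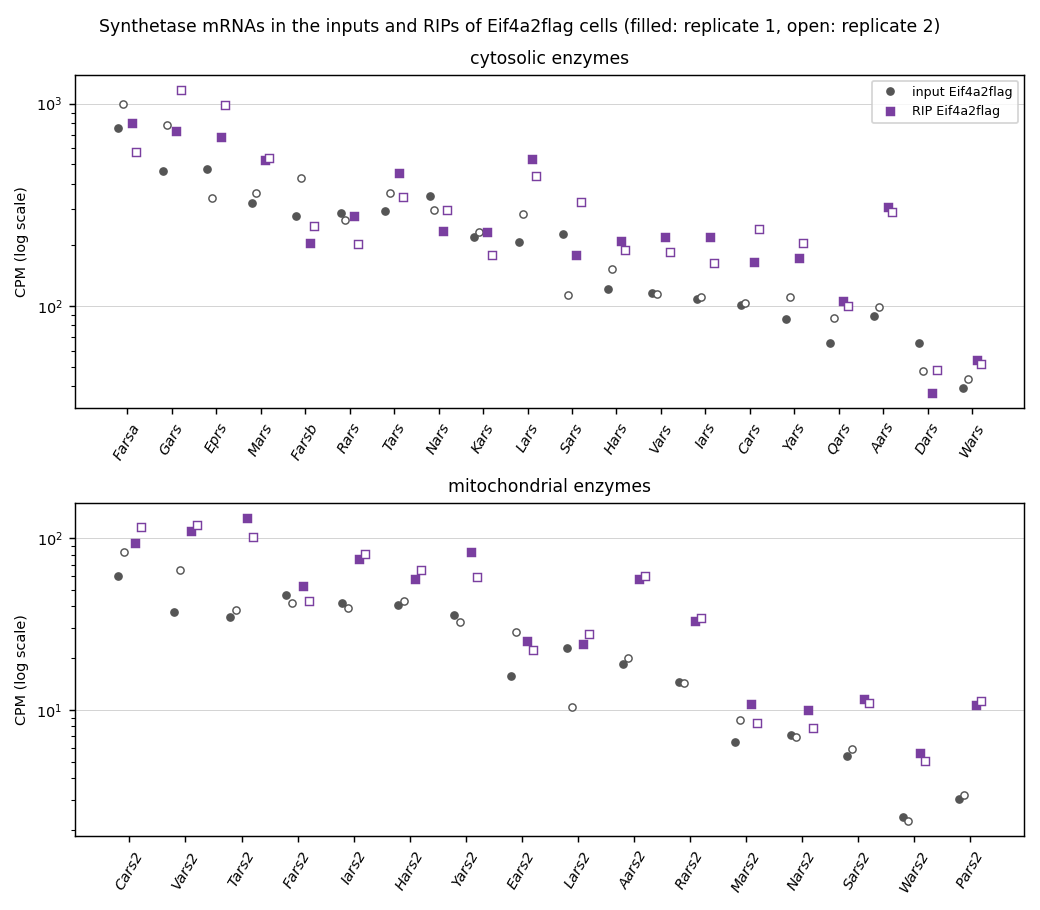
CPM (log scale) of each synthetase mRNA in input Eif4a2flag (grey circles) and RIP Eif4a2flag (purple squares), with cytosolic enzymes in the upper and mitochondrial enzymes in the lower panel, ordered by their mean level over the 4 inputs; filled symbols are replicate 1 and open symbols replicate 2. The RIP libraries of *Aars*, at 309 and 292 CPM, lie clear of its inputs at 88.7 and 98.9 CPM, whereas those of *Farsb* lie below its inputs.

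*Aars* (chromosome 8, 111033144 to 111057664 of GRCm38, plus strand) had 88.7 and 98.9 CPM in input Eif4a2flag and 309 and 292 CPM in RIP Eif4a2flag. Both RIP libraries stood above both inputs, and the log2 fold change was 1.37 (SE 0.26, adjusted p = 0.00967, edgeR). Exons of *Aars* overlap those of *Exosc6* on the same strand. *Aars2* (chromosome 17, 45506841 to 45520843, plus strand) had 18.4 and 20.1 CPM in the inputs and 58.1 and 59.8 CPM in the RIPs, with a log2 fold change of 1.31 (SE 0.27, adjusted p = 0.0133). In EV cells *Aars2* stood above its inputs in the RIP as well, at 35.2 and 20.3 CPM against 19.5 and 14.7 CPM, and RIP Eif4a2flag against RIP EV gave 0.86 (SE 0.75, adjusted p = 0.583). *Aars* and *Aars2*, which load the same amino acid in different compartments, were thus both called, and their changes differed by less than their standard errors.

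*Tars2* (chromosome 3, 95739976 to 95760206, minus strand) had 34.8 and 37.9 CPM in the inputs and 132 and 101 CPM in the RIPs, a log2 fold change of 1.37 (SE 0.27, adjusted p = 0.0113). Its RIP EV libraries, at 31.3 and 110 CPM, overlapped those of RIP Eif4a2flag, and the test between them gave 0.47 (SE 0.80, adjusted p = 0.819). Its cytosolic counterpart *Tars* had 295 and 361 CPM in the inputs and 456 and 345 CPM in the RIPs, a log2 fold change of -0.020 (SE 0.27). The libraries of *Tars* overlapped. *Pars2* (chromosome 4, 106651069 to 106655282, plus strand) was the least abundant called member, with 3.03 and 3.21 CPM in the inputs and 10.7 and 11.2 CPM in the RIPs, a log2 fold change of 1.50 (SE 0.43, adjusted p = 0.0397). *Pars2* lost its call when any of the 4 libraries was left out, with adjusted p between 0.0619 and 0.158, under filterByExpr (0.0511), and with a replicate block (0.0524), and *Aars2* lost it without RIP Eif4a2flag replicate 2 (adjusted p = 0.0683).

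At the other end of the cytosolic list stood *Farsb*, the second subunit of the phenylalanyl enzyme, with 278 and 427 CPM in the inputs and 205 and 249 CPM in the RIPs. It was the only member with both RIP libraries below both inputs in CPM, and its log2 fold change of -0.93 (SE 0.29, adjusted p = 0.0560) just missed the threshold. *Dars*, the aspartyl enzyme of the multi-synthetase complex, had 65.4 and 47.9 CPM in the inputs and 37.0 and 48.0 CPM in the RIPs (log2 fold change -0.72, SE 0.30, adjusted p = 0.125). *Farsa* had 761 and 1000.0 CPM in the inputs and 799 and 573 CPM in the RIPs (log2 fold change -0.66, SE 0.29, adjusted p = 0.135). The libraries of *Dars* and *Farsa* overlapped. Both subunits of the phenylalanyl enzyme had negative values, and neither passed the test.

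Below *Aars* in the cytosolic list came *Eprs*, with 475 and 340 CPM in the inputs and 685 and 982 CPM in the RIPs (log2 fold change 0.72, SE 0.32, adjusted p = 0.144), and *Cars*, with 100.4 and 104 CPM in the inputs and 165 and 241 CPM in the RIPs (0.69, SE 0.29, adjusted p = 0.128). For both, the RIP libraries lay above the inputs without passing the test. Several mitochondrial members followed the called ones without passing the test. *Rars2*, the arginyl enzyme, had 14.5 and 14.3 CPM in the inputs and 33.1 and 34.3 CPM in the RIPs (log2 fold change 0.92, SE 0.30, adjusted p = 0.0587), and *Wars2* had 2.38 and 2.25 CPM against 5.62 and 5.01 CPM (0.89, SE 0.49, adjusted p = 0.229). *Vars2* had 37.0 and 65.5 CPM against 111 and 119 CPM (0.87, SE 0.31, adjusted p = 0.0785), and *Yars2* had 35.5 and 32.3 CPM against 82.5 and 59.2 CPM (0.75, SE 0.28, adjusted p = 0.0912). In all 4 the RIP libraries stood above the inputs. *Rars2* and *Vars2* stood above the inputs in the RIP of EV cells as well.

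The lowest mitochondrial members were *Fars2*, with 46.7 and 42.1 CPM in the inputs and 52.6 and 42.9 CPM in the RIPs (log2 fold change -0.21, SE 0.27), and *Ears2*, the glutamyl enzyme, with 15.8 and 28.6 CPM against 25.3 and 22.2 CPM (-0.20, SE 0.34). Next was *Nars2*, with 7.14 and 6.91 CPM against 9.99 and 7.82 CPM (0.035, SE 0.40). The values of these 3 members differed by less than their standard errors from 0.

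By list, 14 of 16 mitochondrial members had a positive log2 fold change, with a median of 0.66, and 13 of 20 cytosolic members had one, with a median of 0.25. The median over all genes tested was 0.017, and 50.7% of them were positive. Both RIP libraries lay above both inputs in CPM for 13 mitochondrial and 11 cytosolic members, beside 45.8% of all genes, and both lay below for none of the mitochondrial and 1 of the cytosolic members, beside 18.7%. On TMM-scaled CPM the counts above were 10 and 10 and the counts below 0 and 6, beside 3399 and 3236 of all genes. The lower-lying cytosolic mRNAs on that scale were *Dars*, *Farsa*, *Farsb*, *Kars*, *Nars*, and *Rars*. Scaling matters here, since the median over all genes was 0.017 with TMM factors and 0.32 with library size alone, and with library size alone 16 mitochondrial and 14 cytosolic members were positive. The mitochondrial median exceeded the cytosolic one by TMM and by every alternative, with a cytosolic minus mitochondrial difference of -0.41 that ranged from -0.62 to -0.28. The alternatives reuse the same libraries. Between replicates, the difference taken on log2(CPM + 1) had an SD of 0.33, with the variances of both groups added. In 10 of the 14 pairs the mitochondrial enzyme had the larger value, and the widest gaps were those of *Rars* (-0.52) and *Rars2* (0.92), and of *Tars* and *Tars2*. The difference between the lists was not tested, since genes are not replicates.

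**Figure D2:**
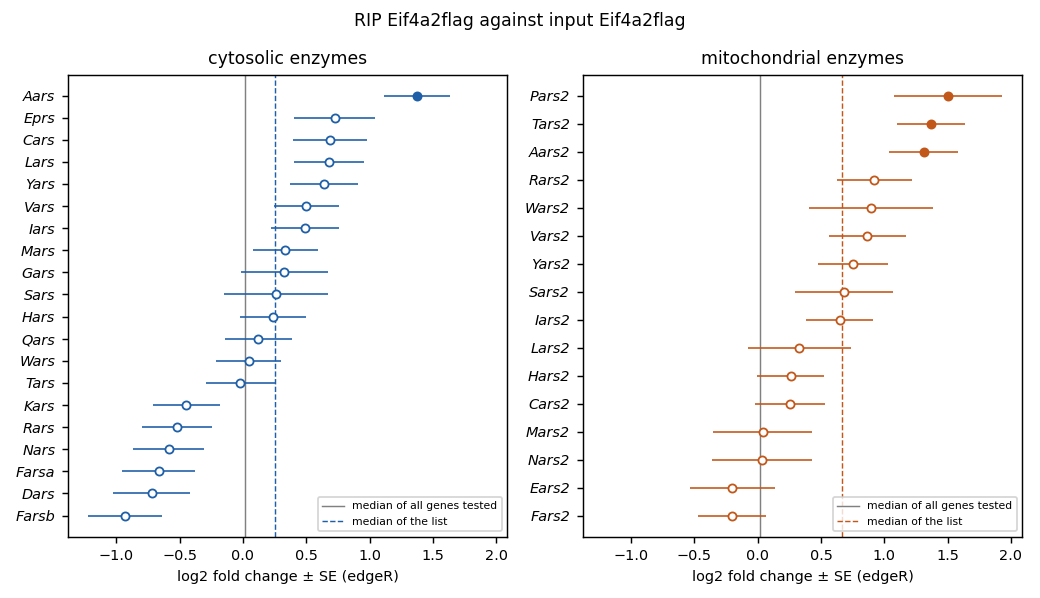
Log2 fold change of RIP Eif4a2flag against input Eif4a2flag with its standard error for the 20 cytosolic and 16 mitochondrial enzymes, from edgeR; filled points were called at an adjusted p under 0.05, the grey line is the median of all genes tested (0.017) and the dashed line that of the list. The mitochondrial points centre on 0.66 and the cytosolic points on 0.25, and the 4 filled points are *Aars*, *Aars2*, *Tars2*, and *Pars2*.

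By class, 16 of 18 class I enzymes had a positive value, with a median of 0.50, and none of them was called. Of 17 class II enzymes, 10 were positive, with a median of 0.24, and they included all 4 called members as well as the 3 lowest. *Eprs*, which holds a catalytic domain of each class, was left out of this count. The 8 cytosolic enzymes of the multi-synthetase complex had a median of 0.23, and the other 12 cytosolic members one of 0.25. Among cytosolic members the log2 fold change rose with coding length (Pearson's r = 0.63, Spearman's rho = 0.71, n = 20 genes), as it did over all genes tested with a coding sequence (r = 0.48, rho = 0.49, n = 10091 genes). Among mitochondrial members r was 0.29 (rho = 0.26, n = 16 genes). The mitochondrial members had the shorter coding sequences, with a median of 1612.5 bases against 2073 for the cytosolic ones, but the longer transcripts, with a median of 3191 bases against 2772.5. With transcript length r was 0.71 for cytosolic and -0.086 for mitochondrial members, beside 0.41 for all genes (n = 10751). With GC content r was 0.44 for cytosolic and 0.18 for mitochondrial members, beside 0.18 for all genes. These correlations are across genes that share the same 4 libraries and are given as a description, and the part of length in the list difference was not tested.

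Of 16 further genes of aminoacylation, *Xpot* was higher and *Aarsd1*, *Prorsd1*, and *Dtd1* were lower in the RIP. *Xpot*, the exporter of tRNAs from the nucleus, had 55.0 and 59.6 CPM in the inputs and 176 and 136 CPM in the RIPs (log2 fold change 1.14, SE 0.27, adjusted p = 0.0210). *Prorsd1*, related to the editing domain of prolyl enzymes, had 54.8 and 59.9 CPM against 27.3 and 32.9 CPM (-1.23, SE 0.27, adjusted p = 0.0165). *Dtd1*, a deacylase that removes D-amino acids from tRNA, had 56.7 and 70.5 CPM against 43.3 and 38.7 CPM (-0.94, SE 0.26, adjusted p = 0.0376). *Aarsd1*, related to the editing domain of alanyl enzymes, was near the detection limit, with 2.60 and 1.28 CPM against 0.268 and 0.200 CPM (-3.24, SE 0.81, adjusted p = 0.0266). The scaffold mRNAs *Aimp1* (0.053), *Aimp2* (-0.18), and *Eef1e1* (-0.38) did not pass the test.

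The second comparison set RIP Eif4a2flag against RIP EV, and so asked how recovery depended on the tagged protein. No synthetase was called in the fit of these 4 libraries, in which edgeR called 0% of all genes higher and 0% lower, with DESeq2 calling 806 and 523. Without adjustment, 2578 genes were higher and 571 lower at p under 0.05, and these took in 3 cytosolic and 4 mitochondrial members, all higher. In the fit of all 8 libraries 7 members were called higher, *Aars*, *Gars*, and *Vars* among the cytosolic and *Ears2*, *Mars2*, *Pars2*, and *Wars2* among the mitochondrial enzymes, beside 24.8% of all genes higher and 5.46% lower, and DESeq2 on the 4 libraries called 3 cytosolic and 1 mitochondrial member. The median log2 fold change was 0.85 for cytosolic and 1.04 for mitochondrial members, beside 0.67 for all genes. These medians rest on the RIP EV replicate used, since without replicate 1 they were 0.50, 0.52, and 0.66, and without replicate 2 they were 1.14, 4.83, and 3.07.

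Recovery without tagged protein differed widely between enzymes. The 3 members with the most counts in RIP EV were *Farsa*, *Eprs*, and *Mars*, all of the cytosolic list. *Farsa* stood at 884 and 807 CPM without and at 799 and 573 CPM with tagged protein (log2 fold change -0.54, SE 0.26, adjusted p = 0.291, edgeR). *Eprs* had 521 and 525 CPM against 685 and 982 CPM (0.45, SE 0.30, adjusted p = 0.461). *Mars* had 189 and 298 CPM against 527 and 537 CPM (0.89, SE 0.36, adjusted p = 0.215, edgeR). Its log2 fold change was 1.29 without RIP EV replicate 2 and 0.58 without replicate 1. Without 1 or the other RIP EV library, *Farsa* had -0.50 and -0.58 and *Eprs* 0.42 and 0.48. *Farsa*, the most abundant synthetase mRNA of the inputs, was thus no less abundant in the RIP without tagged protein than in the RIP with it. Exons of *Mars* overlap those of *Ddit3* on the opposite strand, and whether the counting used strand is not given.

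At the other end of the cytosolic list, *Aars* had the highest ratio of the RIPs. It had 13.2 and 20.0 CPM in RIP EV, below its 61.2 and 37.1 CPM in input EV, and 309 and 292 CPM in RIP Eif4a2flag, a pooled ratio of 17.3 (log2 fold change 3.94, SE 0.48, adjusted p = 0.0650). *Gars*, the glycyl enzyme, stood at 204 and 227 CPM in RIP EV against 729 and 1171 CPM in RIP Eif4a2flag (1.92, SE 0.37, adjusted p = 0.0650). *Vars*, the valyl enzyme, had 38.1 and 66.1 CPM against 220 and 185 CPM (1.71, SE 0.51, adjusted p = 0.117). In each of these 3 the groups did not overlap. Without RIP EV replicate 1 and without replicate 2, the values were 3.65 and 4.30 for *Aars*, 1.82 and 2.02 for *Gars*, and 1.35 and 2.20 for *Vars*. A lone RIP EV library gives no spread of its own, so these fits do not test the changes.

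Among mitochondrial members, *Mars2*, *Pars2*, and *Wars2* had 0 counts in both RIP EV libraries. The limit for a count of 0 was set at 3 counts in the pair of libraries together (0.557 CPM), for counting error alone. Against this limit, RIP Eif4a2flag was at least 17.5-fold higher for *Mars2*, at least 19.7-fold higher for *Pars2*, and at least 9.58-fold higher for *Wars2*. *Ears2* had 0 counts and 1 count in RIP EV against 25.3 and 22.2 CPM in RIP Eif4a2flag, a ratio of 129 with a counting interval from 23.0 to 5095. Bounds and interval take in counting error alone and not the spread between the RIP EV replicates. The study's methods name no molecular identifiers, so copies of the same molecule may be counted more than once. *Yars2*, the tyrosyl enzyme, had 0.489 and 9.86 CPM against 82.5 and 59.2 CPM. Against this, the RIP EV libraries lay above the RIP Eif4a2flag libraries for *Rars2*, with 97.8 and 68.8 CPM against 33.1 and 34.3 CPM, and for *Vars2*, with 140 and 191 CPM against 111 and 119 CPM. Mitochondrial mRNAs were thus found at both ends of the range, and neither end passed the test.

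The RIP EV replicates disagreed for single genes. *Cars*, *Qars*, and *Wars* had 0 counts in RIP EV replicate 1 and 255, 313, and 119 counts in replicate 2, and in all 3 cytosolic and 7 mitochondrial members were at 0 in replicate 1, against 0 and 3 in replicate 2. Without RIP EV replicate 1 edgeR called 7 cytosolic and 7 mitochondrial members higher and 1 and 4 lower, beside 43.8% and 21.6% of all genes, and without RIP EV replicate 2 it called 12 and 10 higher and 0 and 3 lower, beside 59.0% and 18.6%. In CPM, the RIP Eif4a2flag pair exceeded the RIP EV pair for 15 cytosolic and 9 mitochondrial members, beside 51.9% of all genes, and fell short of it for 1 and 2, beside 12.1%.

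**Figure D3:**
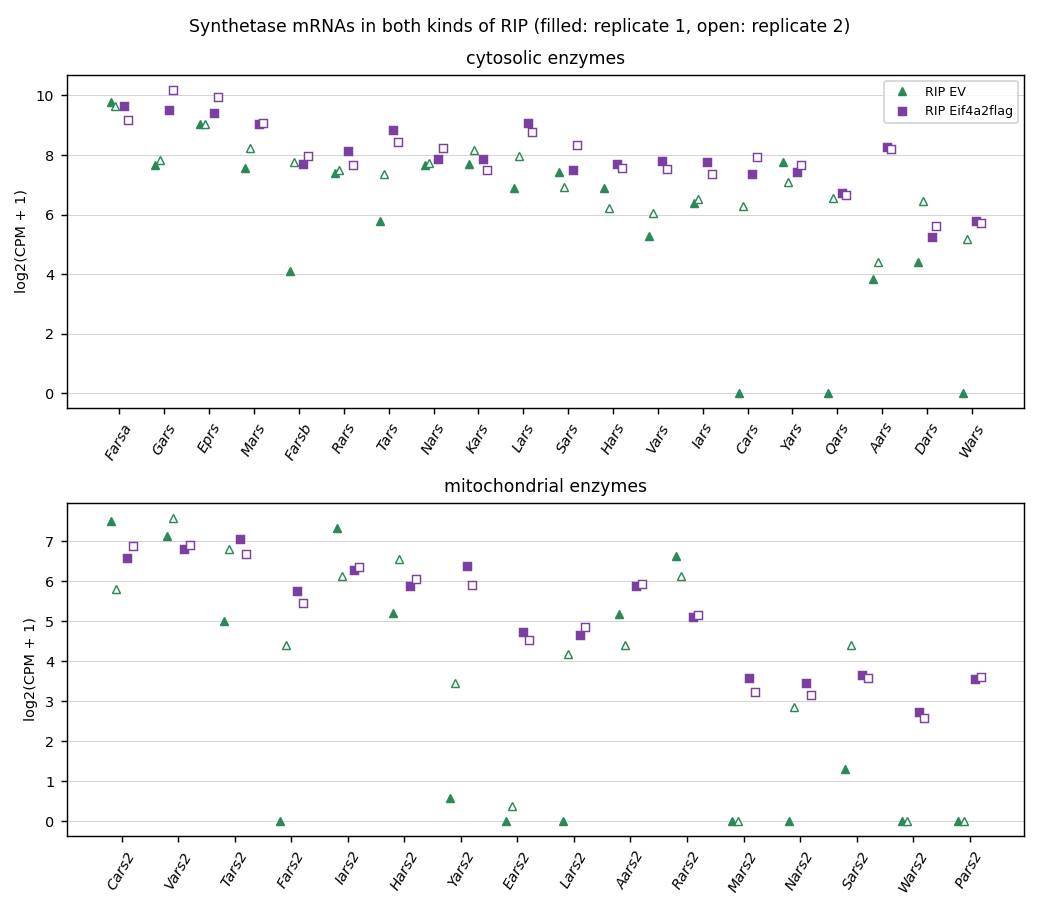
Log2(CPM + 1) of each synthetase mRNA in RIP EV (green triangles) and RIP Eif4a2flag (purple squares), with cytosolic enzymes in the upper and mitochondrial enzymes in the lower panel; filled symbols are replicate 1 and open symbols replicate 2, and a value of 0 is a count of 0. The RIP EV triangles of *Aars* lie far below its squares, those of *Mars2*, *Pars2*, and *Wars2* lie at 0, and those of *Farsa* and *Rars2* lie above the squares.

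RIP EV against input EV measured the background of the immunoprecipitation. No synthetase was called, as edgeR called 0% of genes in either direction, and DESeq2 called 305 genes higher and 487 lower. Without adjustment, 460 genes were higher and 2715 lower at p under 0.05, with 1 cytosolic and 2 mitochondrial members among the former and 1 and 4 among the latter. The median log2 fold change was -0.10 for cytosolic and -0.45 for mitochondrial members, beside -0.65 for all genes. Without RIP EV replicate 1 these medians were 0.019, -0.50, and -0.64, and without replicate 2 they were -0.62, -4.21, and -3.15. Members above both inputs in both RIP EV libraries were *Eprs* and *Yars* in the cytosolic and *Aars2*, *Iars2*, *Rars2*, and *Vars2* in the mitochondrial list. Of these, *Rars2* went from 16.2 and 13.7 CPM in input EV to 97.8 and 68.8 CPM in RIP EV (log2 fold change 2.43, SE 0.81, adjusted p = 0.127, edgeR). Its log2 fold change was 2.15 without RIP EV replicate 1 and 2.65 without replicate 2. Below both inputs lay *Aars*, *Gars*, *Rars*, and *Vars* in the cytosolic list and 7 mitochondrial members. Of all 10754 genes tested, 1571 lay above both inputs and 4829 below both in this way.

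Because RIP EV and RIP Eif4a2flag were each prepared from their own cells, the difference between their RIP over input changes was tested over all 8 libraries. It was called higher in Eif4a2flag cells for 1 of 20 cytosolic and 4 of 16 mitochondrial members, beside 19.2% of all genes, and lower for none, beside 2.1% of all genes. The fit pools the spread of all 8 libraries, although replicates differed by 159% in RIP EV and 23.0% in RIP Eif4a2flag. Its p-values thus understate the spread of RIP EV. The 5 members were *Aars*, *Ears2*, *Mars2*, *Pars2*, and *Wars2*. *Aars*, with counts in every library, differed by 2.97 on the log2 scale (SE 0.60, adjusted p = 0.0183, edgeR). The other 4 rest on RIP EV libraries with 0 counts or 1 count, so that their fitted values depend on the prior count of the fit and give no size. All 5 calls were lost when input EV replicate 1 or any library of the Eif4a2flag cells was left out, when no gene at all was called.

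The last comparison, input Eif4a2flag against input EV, asked how mRNA levels differed with re-expression. No synthetase passed the test, as edgeR called 0% of genes higher and 0% lower, and DESeq2 called 12 genes higher and 5 lower, none of them a member. Without adjustment, 402 genes were higher and 394 lower at p under 0.05, *Aars* being the member among the former and *Wars2* the member among the latter. The cytosolic and mitochondrial lists nevertheless lay on opposite sides of 0. Of 20 cytosolic members 19 had a positive value, with a median log2 fold change of 0.46, and of 16 mitochondrial members 4 had one, with a median of -0.26, beside a median of -0.0079 and 49.3% positive over all genes. In bulk RNA, a change per cell and a change in the make-up of the culture cannot be told apart.

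The summed level of cytosolic synthetase mRNAs was 4295 and 3267 CPM in input EV and 4673 and 5329 CPM in input Eif4a2flag, whereas that of mitochondrial synthetase mRNAs was 487 and 453 CPM and 393 and 443 CPM. The ratio of the sums was 8.82 and 7.22 in input EV and 11.9 and 12.0 in input Eif4a2flag. The groups did not overlap in this ratio, in which each library is set against itself, but 2 against 2 libraries cannot give an exact two-sided permutation p below 0.333. In the RIPs the ratio was 4.73 and 5.82 for EV and 7.98 and 8.77 for Eif4a2flag. The ratio of the sums was thus higher in Eif4a2flag than in EV libraries on both sides, and lower in each RIP group than in its own inputs. The cytosolic minus mitochondrial difference of the list medians of log2(CPM + 1) was 2.63 and 1.85 in input EV and 5.95 and 2.84 in RIP EV. It was 3.32 and 2.91 in input Eif4a2flag and 2.40 and 2.64 in RIP Eif4a2flag. By medians, RIP EV therefore lay above both input EV and RIP Eif4a2flag, unlike by sums.

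**Figure D4:**
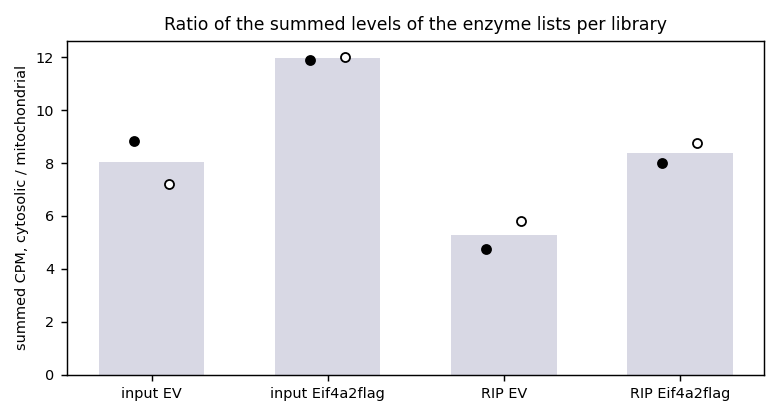
Summed CPM of the 20 cytosolic synthetase mRNAs divided by the summed CPM of the 16 mitochondrial synthetase mRNAs in each library; points are libraries (filled, replicate 1; open, replicate 2) and bars are the means of 2. The inputs of Eif4a2flag cells, at 11.9 and 12.0, lie above the other 6 libraries, which run from 4.73 to 8.82.

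Of the cytosolic members *Aars* had the largest value, with 61.2 and 37.1 CPM in input EV and 88.7 and 98.9 CPM in input Eif4a2flag (log2 fold change 0.90, SE 0.35, adjusted p = 0.660, edgeR). *Lars*, the leucyl enzyme, had 192 and 100.2 CPM against 207 and 286 CPM (0.72, SE 0.38, adjusted p = 0.713). *Nars*, the asparaginyl enzyme, had 245 and 154 CPM against 349 and 298 CPM (0.68, SE 0.35, adjusted p = 0.710). In all 3 the libraries of the Eif4a2flag cells lay above those of the EV cells. This held for 15 cytosolic members and the reverse for none, beside 19.8% of all genes above and 17.3% below.

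The lowest cytosolic values were close to 0. *Rars*, the arginyl enzyme, had 278 and 284 CPM in input EV and 287 and 266 CPM in input Eif4a2flag (-0.029, SE 0.31). *Farsa* had 943 and 703 CPM against 761 and 1000.0 CPM (0.076, SE 0.34), and *Qars*, the glutaminyl enzyme, 81.6 and 59.9 CPM against 65.8 and 87.1 CPM (0.087, SE 0.33). For these 3 the libraries of both groups overlapped.

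Of the mitochondrial members *Wars2* had the lowest value, with 9.63 and 3.43 CPM in input EV and 2.38 and 2.25 CPM in input Eif4a2flag (log2 fold change -1.57, SE 0.63, adjusted p = 0.661, edgeR). *Lars2* had 29.2 and 24.7 CPM against 22.9 and 10.4 CPM (-0.70, SE 0.45), and *Mars2* 12.9 and 10.9 CPM against 6.49 and 8.67 CPM (-0.67, SE 0.46). In these 3 the libraries of the Eif4a2flag cells lay below those of the EV cells, as they did for 6 mitochondrial members in all. The largest mitochondrial values were those of *Fars2*, with 34.3 and 37.8 CPM against 46.7 and 42.1 CPM (0.30, SE 0.33), of *Hars2*, with 40.7 and 28.7 CPM against 40.7 and 43.0 CPM (0.24, SE 0.35), and of *Aars2*, with 19.5 and 14.7 CPM against 18.4 and 20.1 CPM (0.14, SE 0.40). *Fars2* was the only mitochondrial member with both Eif4a2flag libraries above both EV libraries. In 13 of the 14 pairs the cytosolic enzyme had the larger value, the exception being *Farsa* and *Fars2*.

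**Figure D5:**
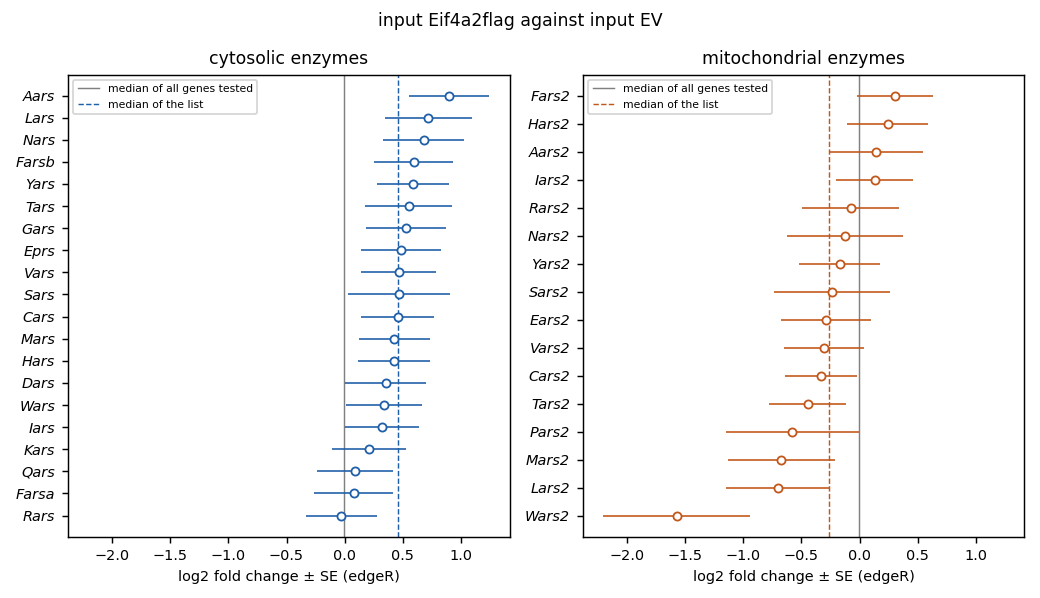
Log2 fold change of input Eif4a2flag against input EV with its standard error for the 20 cytosolic and 16 mitochondrial enzymes, from edgeR; no point was called, the grey line is the median of all genes tested (-0.0079) and the dashed line that of the list. Cytosolic points centre on 0.46 with 19 of 20 above 0, and mitochondrial points on -0.26 with 4 of 16 above 0.

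The cytosolic minus mitochondrial difference of the medians was 0.72, and it ranged from 0.60 to 0.81 over all alternatives. The alternatives reuse the same libraries and do not measure the spread between replicates. That spread, taken on log2(CPM + 1) with the variances of both input groups added, was an SD of 0.62. The input Eif4a2flag libraries were also the reference for RIP Eif4a2flag in the first comparison. The list difference given there, which has the opposite sign, is therefore not independent of this difference. The library left out mattered more for the counts, since 20 cytosolic and 8 mitochondrial members were positive without input EV replicate 1, and 16 and 2 without input EV replicate 2, which was the shallowest input with 3204369 reads on genes. Level and list went together, and over the 36 members the log2 fold change correlated with the log2 mean input level at r = 0.68 (rho = 0.67, n = 36 genes), but among cytosolic members alone r was -0.11 (n = 20) and among mitochondrial members alone 0.50 (n = 16). As above, these are descriptions across genes of the same libraries.

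Known targets of *Atf4* outside the synthetases were set beside the cytosolic enzymes. This list was chosen with earlier results of these data known. Of its 22 genes 20 were tested, and 19 of these had a positive value, beside 49.3% of all genes. The median log2 fold change was 0.76. In 12 of the 20, both Eif4a2flag inputs lay above both EV inputs, beside 19.8% of all genes. None was called after adjustment, and 8 were higher at an unadjusted p under 0.05 (edgeR), beside 402 of all 10754 genes. *Gdf15*, a secreted stress signal, had 23.1 and 16.9 CPM in input EV and 113 and 94.1 CPM in input Eif4a2flag (2.35, SE 0.35, adjusted p = 0.109). *Pck2*, the mitochondrial phosphoenolpyruvate carboxykinase, had 10.4 and 4.68 CPM against 19.9 and 49.5 CPM (2.10, SE 0.52, adjusted p = 0.610). The proline synthesis enzyme *Pycr1* (1.60, SE 0.46) and the stress factor *Nupr1* (1.68, SE 0.45) followed. The list summed to 1302 and 1217 CPM in input EV and 1674 and 2621 CPM in input Eif4a2flag, and its part in the cytosolic values was not tested. The other 16 aminoacylation genes had a median of -0.22, with 3 of 16 positive and none called.

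Between the inputs, *Aars*, *Iars*, *Tars*, and *Yars*, the members with TGATGCAA in their promoter windows, had log2 fold changes of 0.90, 0.32, 0.55, and 0.59, and in the RIP of Eif4a2flag cells against its input they had 1.37, 0.49, -0.020, and 0.64. The medians of all 20 cytosolic members were 0.46 and 0.25 in these comparisons, with 19 and 13 members positive. A part of the element in these values was not tested.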

How the data were processed

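RNA was sequenced by QuantSeq 3′ tags from inputs and anti-Flag RIPs of *Eif4a2* KO ESCs with EV or Eif4a2flag, with 2 libraries in each of 4 groups, taken from the labels. The authors used bbduk for trimming, STAR (version 2.5.3a) and mm10 for mapping, and HTSeq-count (version 0.11.2) for counting, and they deposited raw counts per gene, without normalization. Which annotation release and which strand option they used is not given in the sources used here, so members with overlapping exons (*Aars*, *Cars*, *Farsb*, *Hars*, *Mars*, *Yars*, *Cars2*, *Ears2*, *Fars2*, *Hars2*, *Iars2*, *Nars2*, and *Vars2*) are uncertain. The 5 summary lines of the table stayed out of totals and tests. Reads on genes made up 19.9% to 68.2% of all counts listed for a library, summary lines included, lowest in RIP EV. Names and positions come from GENCODE vM21 of GRCm38, which matched 52403 of 52550 genes.

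Tests took in the 10754 genes that reached 1 CPM in each of the 4 inputs. Each comparison was fitted to its 4 libraries with edgeR (version 4.0.16, R version 4.3.3) by quasi-likelihood tests with TMM factors, adjusted by the Benjamini-Hochberg method over all 10754 genes at 0.05. The groups compared were fitted alone because RIP EV varied far more than the others. The difference between the cell lines used all 8 libraries. Since each group held 2 libraries, calls depend on how edgeR pools the spread of different genes. The scripts were tested on simulated data. The members and lists, the *Atf4* list included, were chosen with earlier results of these data known. Values in every library are given for the 3 highest and 3 lowest members of each list in the comparisons of RIP with input and of the inputs, the 3 members with most counts in RIP EV, and any member called; others named were chosen after their values were seen. Alternatives were library size alone, DESeq2 size factors, DESeq2 (version 1.42.0), edgeR on all 8 libraries, filterByExpr, no filter, a replicate block, and leaving out each library. The counts of positive members, and the values of single members without 1 RIP EV library, were added after seeing the data.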

Additional observations from a re-analysis of the deposited data

Results flagged for a closer look

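The RIP over input change differed between Eif4a2flag and EV cells, by edgeR's test of the difference itself, for 5 members. That test pools the spread of all 8 libraries and so understates the spread of RIP EV. For *Aars* the difference was 2.97 on the log2 scale (adjusted p = 0.0183), from a change of 1.37 in Eif4a2flag cells and of -1.61 in EV cells, and over its 14 alternatives it ran from 2.47 to 3.39 with adjusted p between 1.37e-05 and 0.0775. The fitted difference was 6.93 for *Ears2*, 9.34 for *Mars2*, 9.42 for *Pars2*, and 9.38 for *Wars2* (adjusted p = 0.0176 for each), and it rests on 0 counts or 1 count per RIP EV library, so that these values depend on the prior count of the fit and state no size. The limit of 3 counts, set for a count of 0, takes in counting error alone and not the spread between RIP EV replicates. By this limit, RIP EV held at least 22.1-fold less *Mars2*, at least 8.92-fold less *Pars2*, and at least 13.9-fold less *Wars2* than input EV in CPM. Each of the 5 passed the threshold in 9 of 14 alternatives.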

How the results depend on the processing

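In RIP Eif4a2flag against input Eif4a2flag, library size alone gave 5 cytosolic and 7 mitochondrial members called higher, and edgeR on all 8 libraries gave 0 and 0, with 0 higher and 6 lower among all 10754 genes. DESeq2 and the fit with no filter on low counts each called 1 cytosolic member (*Farsb*) lower. Without 1 library each, 1 to 2 cytosolic and 1 to 3 mitochondrial members were higher, 0 to 1 cytosolic members were lower, and 1 mitochondrial member was higher without RIP Eif4a2flag replicate 2. Over all genes library size alone called 1933 higher and 567 lower, against 908 and 910 as reported, no filter 1408 and 1099, without input Eif4a2flag replicate 1 1314 and 1108, and without RIP Eif4a2flag replicate 2 403 and 455. Sign changed for members that were not called, *Fars2* (0.10) and *Ears2* (0.093) with library size alone, *Ears2* between -0.52 and 0.23 and *Nars2* between -0.11 and 0.15 when 1 library was left out. The causes were not tested.

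Against RIP EV, DESeq2 called 3 cytosolic and 1 mitochondrial members higher and edgeR on all 8 libraries 3 and 4, with 806 and 2664 of all genes higher. Whether same-numbered libraries are paired was not stated in the sources used here. Their deviations correlated at -0.07 to 0.13 across genes, which cannot settle it, since noise between libraries can hide a shared part. A replicate block called 3 cytosolic members higher against RIP EV, and it changed no other count of members by over 1.5 times. Over all genes the block called 210 higher and 171 lower against RIP EV, 154 and 272 for RIP EV against input EV, and 39 and 22 between the inputs, each against 0 and 0 as reported, and without a filter the inputs gave 38 and 17. Leaving out 1 library gave 0 to 12 cytosolic and 0 to 10 mitochondrial members higher, 0 to 1 and 0 to 4 lower, and a difference of the list medians from -3.69 to -0.024. For RIP EV against input EV, DESeq2 called 1 mitochondrial member lower, and edgeR on all 8 libraries called 1 cytosolic and 2 mitochondrial members higher and 1 and 4 lower, beside 484 genes higher and 2828 lower. Leaving out 1 library gave 0 to 1 and 0 to 5 higher, 0 to 9 and 0 to 9 lower, and a difference of the medians from 0.22 to 3.59, and over all genes the omission of RIP EV replicate 1 gave 1814 higher and 4421 lower and that of replicate 2 gave 1747 and 6483.

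For the difference between the cell lines, DESeq2 called 1 mitochondrial member lower, beside 2631 genes higher and 608 lower. Leaving out 1 library gave 0 to 8 cytosolic and 0 to 10 mitochondrial members higher, 0 to 1 and 0 to 2 lower, and a difference of the medians from -4.26 to -0.61, and over all genes the omission of RIP EV replicate 1 gave 3858 higher and 1272 lower and that of replicate 2 gave 5806 and 1337. Between the inputs, no alternative called a member, and leaving out 1 library gave 2 to 8 mitochondrial and 16 to 20 cytosolic members with a positive value. Over the same 4 omissions the value of *Rars* ran from -0.11 to 0.068, of *Farsa* from -0.17 to 0.41, of *Qars* from -0.17 to 0.44, of *Aars2* from -0.092 to 0.48, and of *Hars2* from -0.029 to 0.63, so that each changed sign. Where a library is left out, the lone library of its group is assumed to vary like the others. On TMM-scaled totals the mean cytosolic sum in RIP Eif4a2flag was 5643 CPM and the mitochondrial one 673 CPM. Depth limits RIP EV most, where 3 counts, the limit set for a count of 0, were 1.47 CPM in replicate 1 and 0.897 CPM in replicate 2.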
